A study of Mus musculus with 12 samples.

Results

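UK5099, an inhibitor of the mitochondrial pyruvate carrier, was given alone to mouse prostate organoids, and their RNA was compared with that of vehicle-treated organoids. The comparison covers every gene with a mean of at least 1 TPM in the UK5099 group or in the vehicle group. TPM is a gene's share of the sequenced fragments, divided by gene length and scaled to the same total in each sample. Of 24674 listed genes, 13953 met this limit, and they are called the measured genes here. They held 10396 protein-coding genes, 882 lncRNA genes and 2223 pseudogenes. The limit was met in both groups by 12818 genes, with UK5099 alone by 481 and in vehicle alone by 654. Just outside it lay Ermard, Ppih and Gm11613, whose higher group mean was 0.9983, 0.9987 and 0.9991 TPM. Just inside it lay 2810428J06Rik, Add2 and Gm12221, at 1.0002, 1.0003 and 1.0011 TPM.

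The series holds 12 samples in 4 groups of 3, treated with vehicle, UK5099, butyrate or both drugs. Butyrate is an inhibitor of histone deacetylases. All cultures were wild type, of the C57BL/6 strain, and were organoids derived from basal cells of the prostate. Every group shares that origin and genotype, and treatment is the only difference between groups that the labels give. Organoids are small 3-dimensional epithelial cultures grown in a gel, without the stroma, vessels and blood of the gland. The labels do not say whether the replicates were separate animals or separate cultures, so p-values measure the spread between these samples, which may be technical.

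Pyruvate, the end product of glycolysis, enters mitochondria through a carrier built from MPC1 and MPC2. There it is oxidised by pyruvate dehydrogenase to feed the TCA cycle or carboxylated by pyruvate carboxylase, and outside it can be reduced to lactate or transaminated to alanine. Prostate epithelium is made of basal cells, which carry the keratins KRT5 and KRT14 and the factor p63, and of luminal cells, which carry KRT8 and KRT18. Basal cells can also take a squamous path, in which suprabasal keratins and the proteins of the cornified envelope are made, as in the skin.

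The 6 samples held between 33252024 and 42541904 fragments. Replicates of a gene had a median coefficient of variation of 3.78% in vehicle and 4.53% with UK5099. UK5099 replicate 1 stood farther from replicates 2 and 3, with a chi-square per degree of freedom of 5.80 and 6.02, than those 2 stood from each other, at 2.54. In vehicle the same value was between 2.08 and 2.34. All 8 epithelial marker genes were above 1 TPM, and 4 of them were higher and 4 lower with UK5099 at an adjusted p-value under 0.01 by limma. Among the lower were Epcam, between 531 and 546 TPM in vehicle and between 296 and 311 with UK5099, and Cdh1, between 167 and 175 and between 126 and 134. Of the markers of other cells, 2 of 11 fibroblast and smooth muscle genes, 0 of 6 endothelial genes, 1 of 5 blood cell genes and 1 of 7 neuroendocrine genes reached 1 TPM in a group. The fibroblast list summed to between 3.36 and 3.76 TPM in vehicle and between 3.72 and 4.17 with UK5099, and the neuroendocrine list to between 2.38 and 3.40 and between 1.84 and 3.42. The endothelial list summed to at most 0.0955 TPM in vehicle and 0.113 with UK5099. Ptprc, which marks all blood cells, was at most 0.00425 TPM, and the blood list's sum, between 24.0 and 25.1 TPM in vehicle and between 29.8 and 31.1 with UK5099, was nearly all Cd68, a lysosomal protein best known from macrophages. The endothelial genes Cdh5, Kdr and Tek were at 0 in at least 1 sample. The part of such cells in the results was not tested.

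The first question was how much of the transcriptome moved. Differences are given as log2 differences of TPM + 1 between the UK5099 and vehicle means, from a limma fit with Benjamini-Hochberg adjustment. A gene is said to have risen or fallen where the adjusted p-value was under 0.01, and is called where the difference was also over 1. Of the measured genes, 1662 rose (11.9%) and 5328 fell (38.2%). Called genes were nearly even, with 229 higher (1.64%) and 225 lower (1.61%). Of these, 62 of the higher and 50 of the lower genes reached 1 TPM in 1 group only, so the limit fixed their direction. This holds among the genes described below for Krt6b, Calm4, Cnfn, Cstdc5, Dmkn, Flg, Rptn, Dlk2, Duox1, Gjb6, Nat8l, Teddm3, Thbd, Thbs2, Cyp1a1, Slpi, Tgfbi, Dcn, Gm6551 and Pcx, which were higher, and for Ctla2a, Cxcl13, Enho, Hp, Rgs4, Ifit3, Gdf15, Timp3, Ldhb, Emb, Bcl2 and mt-Tw, which were lower. The large differences were mostly upwards, since 74 called genes had a difference over 2 and 17 had one under -2, and 15 against 2 passed 4 and -4. The UK5099 and vehicle values did not overlap in any of the 454 called genes, nor in 66.5% of all measured genes. Protein-coding genes made up 203 of those called higher and 198 of those called lower.

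The excess of falls came with a shift of the whole distribution. The median difference over the measured genes was -0.13, with 30.5% above 0. Each sample was also rescaled by the median of its gene ratios, which sets the typical gene to no change. After this rescaling the median was 0.00, and 2904 genes rose (20.8%) while 2868 fell (20.6%). Differences here are on the deposited scale and are to be read against -0.13. A small fall can become a small rise in this way. The called genes then split as 263 higher (1.88%) and 148 lower (1.06%). Of the 143 called genes named in the text 12 were then no longer called. They were mt-Tw, whose adjusted p-value was 0.0112, and Adm, Asns, Atf5, Cldn8, Cxcl1, Irf9, Mthfd2, Rdh10, Slc1a5, Timp1 and Vcam1, which still fell, by 0.87 to 0.99 on the log2 scale. In bulk RNA a lower level in each cell and fewer cells that express a gene cannot be told apart, and this holds for every difference in the text.

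Gene lists of pathways and cell programs were counted over their measured genes. The lists held 806 measured genes of 992 in the table, 36 genes stood in more than 1 list, and 60 of the genes called higher and 64 of those called lower were in a list. Among lists with at least 5 measured genes, the suprabasal keratins had the highest median, 2.64, followed by the genes of the cornified envelope at 2.24, the basal genes at 0.68 and the desmosome at 0.61. Chemokines and cytokines had the lowest, -0.98, next to interferon-stimulated genes at -0.94, complement and acute phase genes at -0.62 and targets of the stress factor ATF4 at -0.57. The plot of all lists shows the medians of the fuel and respiration lists closer to that of the measured genes, -0.13. They ran from -0.24 for the lactate list to 0.10 for glucose uptake and glycolysis, which was at 0.23 after rescaling. Single fuel genes lay farther out, from -1.07 to 0.76 among those that bring other carbon to mitochondria. The epithelial and immune lists spread to either side.

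**Figure D1:**
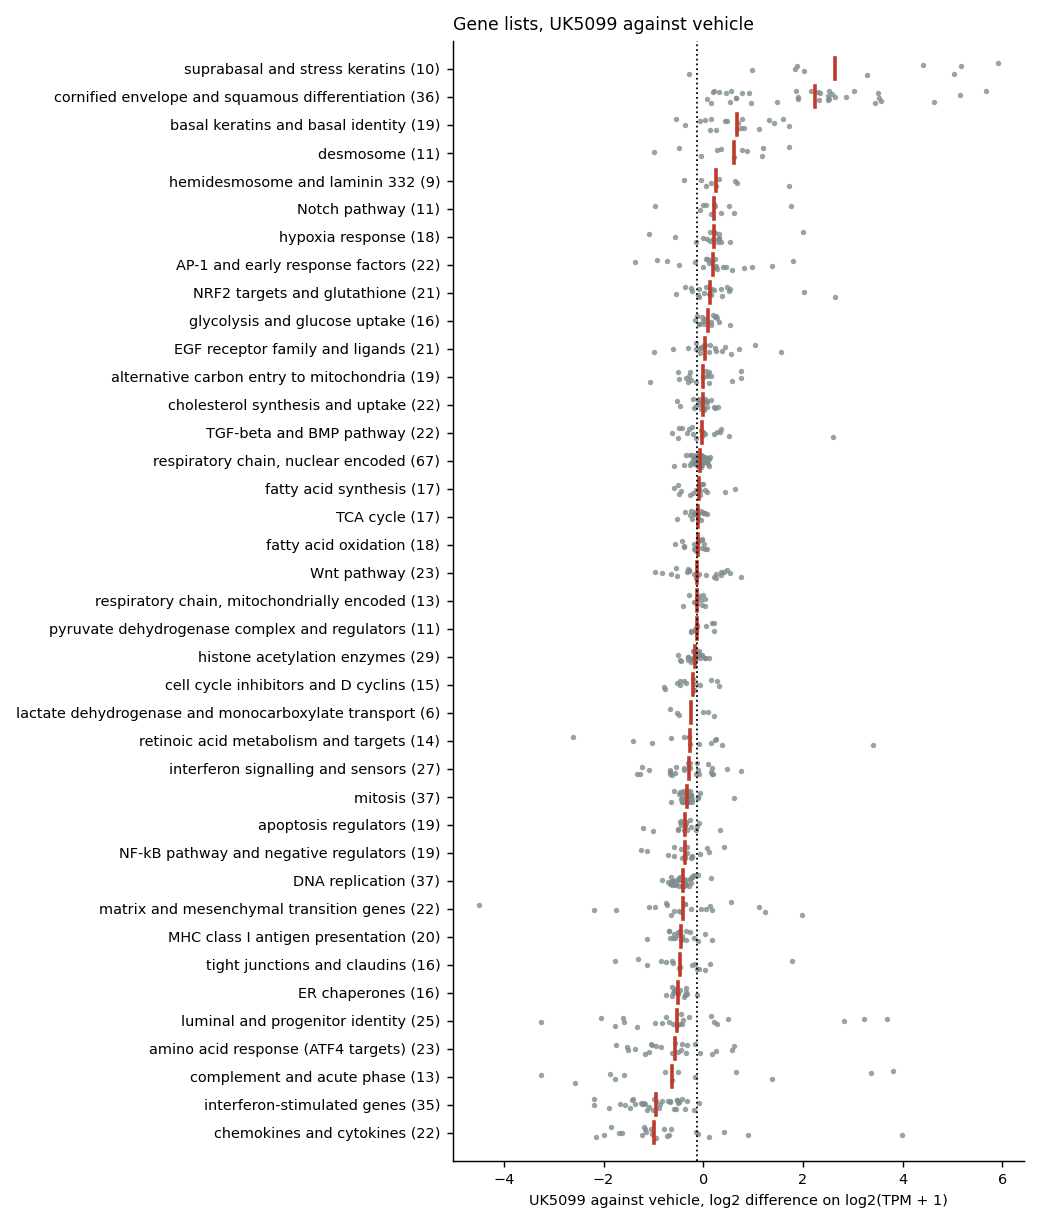
UK5099 against vehicle for the measured genes of each list with at least 5 of them (number in brackets). Each grey point is the log2 difference of 1 gene on the log2(TPM + 1) scale, red bars are list medians, and the dotted line is the median of all measured genes, -0.13. Suprabasal keratins and cornified envelope genes lie farthest right, at medians of 2.64 and 2.24, and chemokines and interferon-stimulated genes farthest left, at -0.98 and -0.94.

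The block is at the carrier protein, and the RNA of the carrier did not pass the test. Mpc1 (chromosome 17, 8501736 to 8516493 in the table's coordinates, for which the submitters' processing notes name GRCm39) was at 6.69, 6.36 and 7.15 TPM in vehicle and 6.02, 6.59 and 6.45 TPM with UK5099. Mpc2 (chromosome 1, 165288206 to 165308783) was at 4.14, 3.88 and 3.84 TPM and 3.65, 3.64 and 3.33 TPM. The groups overlapped for Mpc1. The differences were -0.07 ± 0.06 (SE) and -0.13 ± 0.04 (SE), with adjusted p-values of 0.392 and 0.0223, and both lay close to 0 after rescaling, at 0.06 and -0.01. None of the values of Mpc1 came out as whole fragments, so some of its fragments belong to other genes and the level is uncertain.

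Genes of glucose uptake and glycolysis rose in part and by small margins. Of 16 measured genes 8 rose and 3 fell, with a median of 0.10, and after rescaling 12 rose and 0 fell. Slc2a1, which encodes the glucose transporter GLUT1, was at 51.2, 49.9 and 47.6 TPM in vehicle and 60.7, 61.7 and 64.5 TPM with UK5099, a difference of 0.32 ± 0.03 (SE). Pfkfb3, whose enzyme makes the activator of phosphofructokinase, was at 1.43, 1.49 and 1.58 TPM and 2.51, 2.74 and 2.62 TPM, 1.75-fold higher. Neither gene had overlapping groups. The enzymes of lower glycolysis Pgk1 and Pgam1 rose by 0.26 and 0.28, and the hexokinase gene Hk1 by 0.16. Hk2 fell, at -0.17, but was at -0.03 after rescaling.

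At the branch points of pyruvate the changes differed between enzymes. Pdk1, a kinase that inactivates pyruvate dehydrogenase, rose from 36 to 41.9 TPM, and Pdp1, a phosphatase that reactivates it, rose from 8.70 to 10.3 TPM, which did not pass without vehicle replicate 2 (0.17) or 3 (0.23) or UK5099 replicate 2 (0.24) or 3 (0.19). The subunit genes did not rise: Pdhx, the component that holds the complex together, fell by 0.24 on the log2 scale, and Pdha1 was at -0.14 as deposited and 0.00 after rescaling. Other routes out of pyruvate were also measured. Pcx, pyruvate carboxylase, was at 0.691, 0.689 and 0.691 TPM in vehicle and 1.53, 1.43 and 1.58 TPM with UK5099, 2.19-fold higher. Gpt, the alanine aminotransferase that interconverts pyruvate and alanine, was at 5.21, 5.38 and 5.43 TPM and 9.62, 9.09 and 10.7 TPM, 1.83-fold higher. In both genes every UK5099 value lay above every vehicle value, and the differences were 0.57 ± 0.05 (SE) and 0.76 ± 0.05 (SE). Pcx was measured through UK5099 alone, which fixes its direction, and Gpt had an adjusted p-value of 1.3e-06. Gpt2, which encodes the mitochondrial form, was at 0.06 and did not pass.

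Lactate genes split as well. Ldha, which favours reduction of pyruvate to lactate, was at 488, 490.4 and 479.7 TPM in vehicle and 512, 516 and 523 TPM with UK5099, a difference of 0.09 ± 0.02 (SE). Ldhb, the subunit that favours the return reaction, went from 1.12 to 0.480 TPM, a difference of -0.52 ± 0.06 (SE), but none of its values came out as whole fragments and its level is uncertain. Slc16a3, the lactate exporter MCT4, rose from 83.7 to 97.9 TPM, and Slc16a1, the carrier MCT1, was at 18.3 and 18.2 TPM. Bsg and Emb, the partner proteins that bring these carriers to the membrane, fell, at -0.66 and -0.48. The direction of Slc16a1 was not stable, at -0.01 as deposited and 0.13 after rescaling.

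Genes that bring other carbon to mitochondria moved both ways, with 7 of 19 higher and 9 lower. Gls2, a glutaminase gene, was at 1.17, 1.17 and 1.05 TPM in vehicle and 2.49, 2.55 and 2.67 TPM with UK5099, 2.28-fold higher, with a difference of 0.75 ± 0.05 (SE). Glud1, glutamate dehydrogenase, rose by 0.16. Against this, Slc1a5, the plasma membrane transporter of glutamine, was at 51.1, 51.1 and 49.6 TPM and 24.2, 24.3 and 22.2 TPM, 2.15-fold lower and called at -1.07 ± 0.03 (SE), although not after rescaling, at -0.92. The malic enzymes Me1 and Me2, which make pyruvate from malate, fell by 0.48 and 0.30 on the log2 scale. Slc25a10 and Slc25a11, carriers of dicarboxylates and of oxoglutarate in the inner membrane, fell as well, at -0.50 and -0.35.

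The TCA cycle, fatty acid oxidation and the respiratory chain stayed near the general shift. In the TCA cycle 0 of 17 genes rose and 9 fell, with a median of -0.11 that was 0.02 after rescaling, where 5 rose and 5 fell. Idh2, the mitochondrial NADP-dependent isocitrate dehydrogenase, had the largest fall, from 25.8 to 17.6 TPM. Succinate dehydrogenase fell in its subunits Sdha, Sdhb and Sdhd, at -0.23, -0.26 and -0.37. Fatty acid oxidation had 0 genes higher and 9 lower of 18, of which Decr1, needed for unsaturated fatty acids, fell most, from 4.15 to 2.46 TPM. Cpt1a, the entry step for long chains, fell by 0.19 on the log2 scale and was at -0.06 after rescaling. Of 67 nuclear genes of the respiratory chain 0 rose and 17 fell, and the median of -0.07 turned to 0.07 after rescaling. The 13 genes of the mitochondrial genome had a median of -0.12, with mt-Cytb lower at -0.40 and mt-Nd4l at -0.28. Their median was 0.03 after rescaling.

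**Figure D2:**
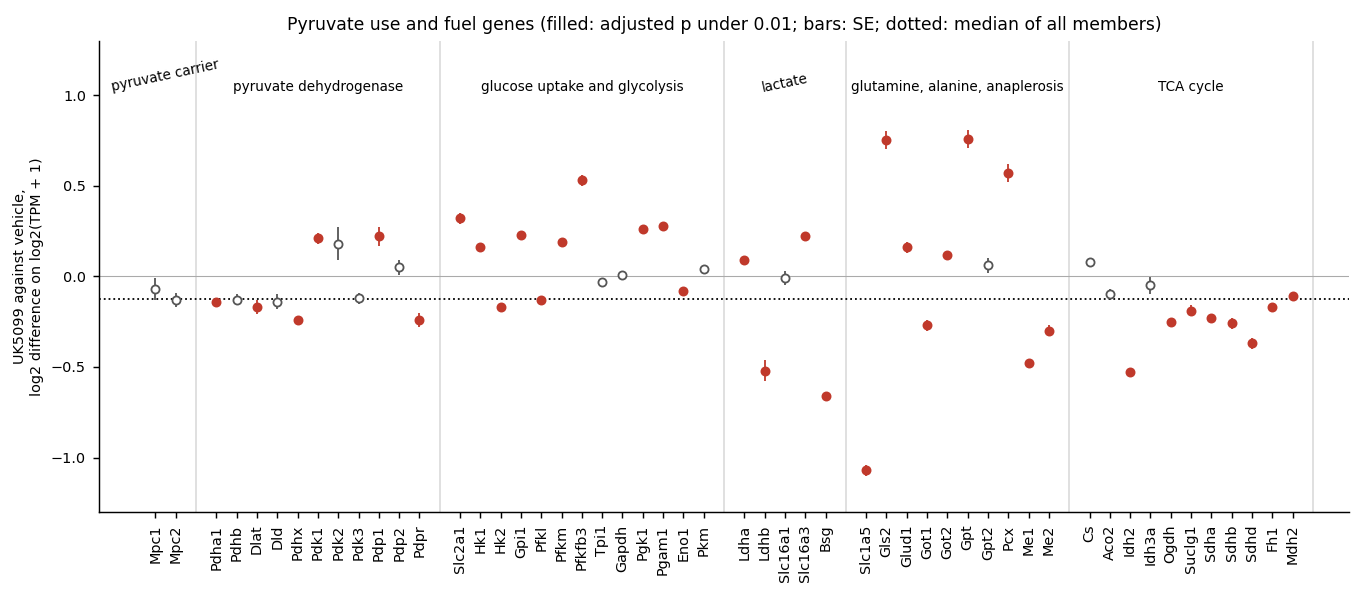
Log2 difference on log2(TPM + 1) between UK5099 and vehicle for genes of pyruvate transport and use, grouped by step. Filled points had an adjusted p-value under 0.01, bars are standard errors, and the dotted line is the median of the measured genes, -0.13. Gls2, Gpt, Pcx and Pfkfb3 lie highest, between 0.53 and 0.76, Slc1a5 lies lowest at -1.07, and both carrier genes are open points at -0.07 and -0.13.

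Lipid synthesis gave no common direction. Of 22 cholesterol genes 4 rose and 5 fell, with Sc5d and Idi1 higher, at 0.29 and 0.22, and the sterol-regulated inhibitor Insig1 lower, at -0.52. Their median was close to 0 as deposited and 0.14 after rescaling, where 14 rose and 2 fell. In fatty acid synthesis the desaturase genes Fads1 and Fads2 fell by 0.44 and 0.58 on the log2 scale, and their regulator Srebf1 fell from 28.8 to 20.4 TPM. Acss2, which makes acetyl-CoA from acetate, went the other way, from 2.27, 2.20 and 2.04 TPM in vehicle to 4.04, 3.74 and 3.99 TPM with UK5099. Its groups did not overlap and the difference was 0.63 ± 0.06 (SE). Acly, which makes acetyl-CoA from citrate exported by mitochondria, was at 38.3 and 39.1 TPM. Among 29 enzymes and readers of histone acetylation 0 were called, 1 rose and 15 fell, where 38.2% of all measured genes fell. After rescaling 3 rose and 6 fell, with a median of -0.05, so the list stayed near the general shift. The deacetylase genes Hdac1 and Hdac2 fell, at -0.44 and -0.31.

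Targets of ATF4, the factor that answers shortage of amino acids and mitochondrial stress, fell as a group. Of 23 measured genes 18 fell and 4 rose, 8 were called lower, against 5 after rescaling, and the median was -0.57. Summed over the list, TPM was 2153, 2150 and 2100 in vehicle and 1701, 1729 and 1720 with UK5099. Slc7a5 (chromosome 8, 122607889 to 122634433), the transporter of large neutral amino acids, was at 52.3, 51.9 and 49.7 TPM in vehicle and 14.4, 14.4 and 14.6 TPM with UK5099. The groups were far apart, 3.54-fold, with a difference of -1.75 ± 0.04 (SE) and an adjusted p-value of 1.5e-09. Trib3, a pseudokinase that dampens this response, was at 10.3, 10.9 and 10.1 TPM and 3.10, 2.84 and 2.98 TPM. Asns, asparagine synthetase, was at 34.9, 34.6 and 33.6 TPM and 15.6, 16.4 and 17.1 TPM. Every UK5099 value of these genes lay below every vehicle value, with differences of -1.53 ± 0.07 (SE) and -1.03 ± 0.04 (SE).

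The falls reached several arms of the ATF4 program. Serine and one-carbon genes fell in Phgdh, the first step of serine synthesis, at -0.85, and in Mthfd2, the mitochondrial folate enzyme, at -1.08. The factors Atf5 and Atf3 fell by 1.04 and 1.37 on the log2 scale, and Chac1, which degrades glutathione, by 1.17. The secreted factors Stc2 and Gdf15 were at -1.51 and -0.95. Atf4 itself, which is regulated mainly in translation, was at 786 and 749 TPM, a difference of -0.07 that did not pass and was 0.08 after rescaling. Sesn2, an inhibitor of mTORC1 that is also a p53 target, rose from 7.55 to 12.1 TPM, and Cebpb rose from 102 to 151 TPM. With butyrate in both arms, 4 of the list fell and 6 rose on addition of UK5099, with a median of -0.02 beside -0.12 over all measured genes. The difference between these responses was itself called for 7 genes, Slc7a5, Trib3, Stc2, Chac1, Mthfd2, Atf5 and Asns, each with the higher response on butyrate. In Chac1 the response was -1.17 alone and 0.72 on butyrate.

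Chaperones of the endoplasmic reticulum fell together. All 16 fell, with a median of -0.50, and after rescaling 15 of them fell and 0 rose. Hspa5, the main chaperone BiP, was at 987, 965 and 962 TPM in vehicle and 628, 649 and 654 TPM with UK5099, a difference of -0.59 ± 0.02 (SE). Herpud1, which serves degradation of misfolded proteins, fell most, from 90.4 to 53.7 TPM, and Edem1 fell least, at -0.12. None was called. The member that did not pass after rescaling was Edem1, at 0.02.

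The antioxidant genes under NRF2 went up in part. Of 21 genes 11 rose and 5 fell, with a median of 0.14. Nqo1 (chromosome 8, 108114857 to 108129838), a quinone reductase, was at 7.27, 7.74 and 7.86 TPM in vehicle and 49.99, 53.2 and 54.6 TPM with UK5099. That was 6.90-fold with no overlap, and a difference of 2.64 ± 0.04 (SE) with an adjusted p-value of 4.5e-10. Gsta4, a glutathione transferase for lipid aldehydes, was at 33.5, 34.3 and 32.6 TPM and 138, 134 and 145 TPM, 4.16-fold higher. No other gene of the list was called. Gclc and Gclm, the subunits of the enzyme that starts glutathione synthesis, rose by 0.54 and 0.37, while Txnrd1, thioredoxin reductase, fell by 0.37 on the log2 scale, and Hmox1, haem oxygenase, was at 12.7 and 12 TPM.

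Hypoxia genes rose in 12 of 18 cases and fell in 3, with a median of 0.22. Hif1a, the oxygen-regulated factor, rose from 22 to 32.3 TPM, and Vegfa, an angiogenic factor, rose from 84.4 to 108 TPM. Car12, a membrane carbonic anhydrase, was at 1.58, 1.74 and 1.70 TPM in vehicle and 9.55, 9.77 and 9.73 TPM with UK5099, 5.79-fold higher and called at 2.00 ± 0.03 (SE). The better known hypoxia marker Car9 rose less, by 0.29. Adm, adrenomedullin, was called in the other direction, from 22 to 9.98 TPM. It still fell but was not called after rescaling, at -0.93, or without UK5099 replicate 1, at -0.94.

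The largest rises lay in the squamous program of the epithelium. Of 10 suprabasal and stress keratin genes 9 rose, 1 fell, namely Krt80 at -0.28, and 8 were called higher. Krt80 did not pass without vehicle replicate 2 or without UK5099 replicate 2, at -0.25 in both, and was at -0.16 after rescaling. Of these genes 1 was measured through 1 group alone, which fixes its direction. Summed TPM was 1180, 1180 and 1149 in vehicle and 5086, 4940 and 5269 with UK5099. Krt10 (chromosome 11, 99276080 to 99280190), a keratin of cells that have left the basal layer, was at 2.68, 2.43 and 2.80 TPM in vehicle and 115, 108 and 132 TPM with UK5099. Krt13 (chromosome 11, 100008153 to 100012392), its counterpart in non-cornified stratified epithelium, was at 10.8, 12.9 and 11 TPM and 268, 237 and 287 TPM. The groups were 44.9-fold and 22.8-fold apart without overlap, with differences of 5.03 ± 0.11 (SE) and 4.40 ± 0.13 (SE) and adjusted p-values of 2.6e-09 and 1.3e-08. Krt1, the partner of KRT10 in skin, was at 1.63, 1.28 and 1.52 TPM and 8.14, 7.58 and 7.66 TPM, so it rose 5.28-fold and stayed low. Of the keratins of stressed or wounded epithelium, Krt16 rose from 49.4 to 488 TPM and Krt6a from 1090 to 4011 TPM. Both of the values of Krt16 that lay under 1000 fragments were fractional, so some of its fragments belong to other genes as well, and the same holds for Krt6b, whose difference of 5.92 was the highest of all measured genes.

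Genes of the cornified envelope rose in 33 of 36 cases, with 0 lower, 23 called and a median of 2.24. Of the 36 genes, 7 were measured through UK5099 alone, which fixes their direction, and they are included in these counts and in the median. Ivl, involucrin, an early scaffold of the envelope, was at 35.4, 33.5 and 33.2 TPM in vehicle and 174, 158 and 184 TPM with UK5099, a difference of 2.30 ± 0.08 (SE). Tgm1, the transglutaminase that crosslinks it, was at 3.08, 3.01 and 2.65 TPM and 21.5, 19.8 and 22.4 TPM. Evpl and Ppl, envoplakin and periplakin, which tie the envelope to desmosomes and keratins, rose by 1.86 and 0.65. All 4 genes were separated from vehicle without overlap. The small proline-rich proteins that fill the envelope rose in Sprr1b, from 38.3 to 318 TPM, and in Sprr2h, from 19.8 to 234 TPM, both read from whole fragments. Sprr2a3 and Sprr2e did not pass, at 0.20 and 0.07.

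Other envelope genes differed in level. Lor, loricrin, the main envelope protein of epidermis, did not pass, at 8.37 and 9.63 TPM. Flg, filaggrin, was at 0.0150, 0.0155 and 0.0178 TPM in vehicle and 2.15, 1.45 and 1.91 TPM with UK5099, and Rptn, repetin, at 0.0526, 0.0271 and 0.0835 TPM and 5.59, 4.52 and 6.90 TPM. Cnfn, cornifelin, was at 0 in all 3 vehicle samples and at 5.64, 5.77 and 7.75 TPM with UK5099. Against a limit of 3 fragments per library, 0.203 TPM, its mean of 6.39 TPM was at least 31.5-fold higher. Dmkn, dermokine, was at 0.907, 0.955 and 0.879 TPM and 19.9, 20.9 and 22 TPM, 22.9-fold higher. The transcription factors that drive the program rose as well, in Zfp750 from 11.7 to 71.5 TPM, in Ovol1 from 8.62 to 35 TPM and in Grhl3 from 3.79 to 8.24 TPM, and Klf4, a factor of barrier formation, rose from 123 to 244 TPM.

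Within the UK5099 group these genes varied between replicates. Psca, prostate stem cell antigen, was at 835, 634 and 928 TPM with UK5099 against 117, 121 and 94.1 TPM in vehicle. Ly6g6c was at 69.3, 58.3 and 87.5 TPM against 2.17, 1.67 and 1.88 TPM, and Crnn, cornulin, at 164, 126 and 160 TPM against 13.2, 12.4 and 12.8 TPM. In these genes UK5099 replicate 2 was the lowest of the 3 and still lay above all vehicle samples. Over the 229 genes called higher, replicate 2 was the lowest of the UK5099 samples in 123 and replicate 3 the highest in 143.

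Basal genes rose along with the squamous ones. Of 19 genes 15 rose and 2 fell, with 5 called higher and a median of 0.68. Of these genes 3 were measured through UK5099 alone, among them Dlk2. Beside Krt5 and Krt14, at 1.42 and 1.59, the called genes were Col17a1, Dlk2 and Snai2. Col17a1, a collagen that anchors basal cells, was at 59.5, 58.4 and 59.6 TPM in vehicle and 191, 198 and 203 TPM with UK5099. Snai2, a factor of basal identity, was at 73.1, 72.2 and 76.5 TPM and 148, 167 and 171 TPM. UK5099 values lay above vehicle in every sample, 3.33-fold and 2.19-fold, and the differences were 1.72 ± 0.03 (SE) and 1.12 ± 0.06 (SE). Krt15, a basal keratin, rose by only 0.25, and Krt17 was at 458 and 440.5 TPM. Ngfr and Col7a1 fell, at -0.54 and -0.37.

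Luminal genes fell in 18 of 25 cases and rose in 6, with a median of -0.53 and -0.38 after rescaling. Besides the luminal keratins Krt8 and Krt18, at -1.33 and -0.97, Krt7 and Krt19 fell by 0.69 and 0.53 on the log2 scale. Cldn3, a claudin of luminal tight junctions, was at 675, 673 and 636 TPM in vehicle and 202, 197 and 178 TPM with UK5099, 3.44-fold lower at -1.78 ± 0.05 (SE). Ppp1r1b, a phosphatase inhibitor, was at 24.1, 24.8 and 23.5 TPM and 5.33, 5.68 and 4.27 TPM, 4.73-fold lower at -2.05 ± 0.11 (SE). Both groups of values were separate in each gene. Cp, ceruloplasmin, and Prom1, a marker of luminal progenitors, were called lower, from 109.9 to 35.8 TPM and from 7.14 to 1.67 TPM. The transcription factor genes Foxa1, Hoxb13 and Ehf fell, at -0.44, -0.42 and -0.46.

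The 3 genes of the luminal list that were called higher, Krt20, Psca and Ly6d, are also made in urothelium or squamous epithelium. Ly6d was at 89.1, 95.6 and 93.8 TPM in vehicle and 1221, 1151 and 1246 TPM with UK5099, 13-fold higher, and Krt20 at 2.31, 1.74 and 1.78 TPM and 27.2, 24.1 and 27.9 TPM, 13.6-fold higher. The list kept for secretory products of the mature gland had 8 genes in the table, of which 3 were measured. Summed TPM of the 8 was between 521 and 546 in vehicle and between 294 and 301 with UK5099. Of these Mmp7, a matrix protease of prostate epithelium, was at 292, 299.8 and 282 TPM and 128, 128 and 125 TPM, and was called lower at -1.19 ± 0.05 (SE). The others were Spink5, a protease inhibitor shared with the epidermis and called higher at 2.41, and Nupr1, at -0.63.

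**Figure D3:**
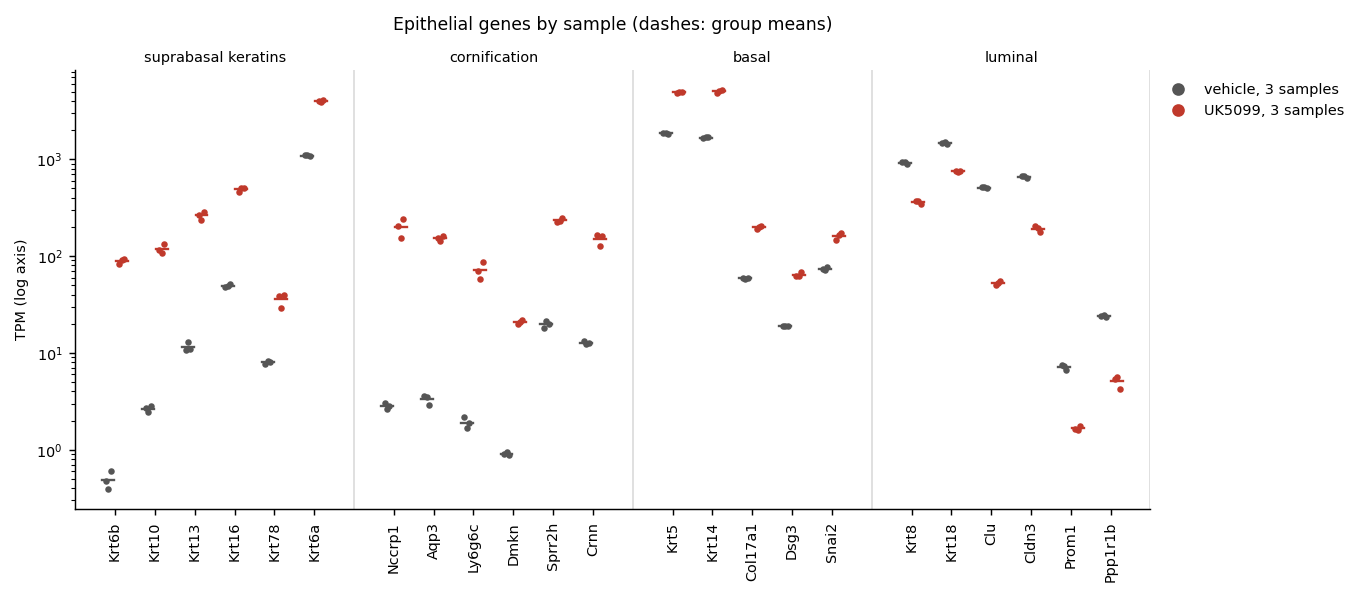
TPM of epithelial genes in each of the 3 vehicle samples (grey) and 3 UK5099 samples (red) on a log axis, grouped by program, with dashes at the group means. In every gene shown the groups are apart: suprabasal keratin, cornification and basal genes are higher with UK5099, as Krt10 at 2.63 and 118 TPM, and luminal genes are lower, as Cldn3 at 661 and 192 TPM. The genes were picked, and members that went the other way, such as Krt80, Ngfr, Col7a1, Ly6d, Psca and Krt20, are not shown.

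Cell junctions followed the same lines. In the desmosome 8 of 11 genes rose and 2 fell. Dsg3, a desmoglein of basal and stratified epithelium, was at 19, 18.9 and 18.8 TPM in vehicle and 62.5, 62.3 and 68.5 TPM with UK5099, a difference of 1.72 ± 0.05 (SE), and Dsc3 and Perp were called with it, at 1.19 and 1.17. Dsg2 and Pkp2, the forms found in simple epithelium, fell, at -0.49 and -0.98. Tight junction genes fell in 12 of 16 cases. Cldn8 and Cldn6 were called lower beside Cldn3, at -1.12 and -1.31, of which Cldn8 was not called after rescaling, at -0.97, while Cldn1, a claudin of stratified epithelium, was called higher, from 5.58 to 21.5 TPM. In the hemidesmosome 6 of 9 genes rose, among them Dst, at 0.63, and Lama3, a laminin chain, at 0.32.

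Matrix and mesenchymal genes fell in 14 of 22 cases and rose in 6. Beside Fn1, fibronectin, at -4.50, the secreted protein osteopontin was called lower in Spp1, which was at 37.6, 34.4 and 35.3 TPM in vehicle and 5.82, 7.41 and 8.13 TPM with UK5099. Vim, vimentin, was at 8.19, 8.20 and 7.55 TPM and 1.65, 1.82 and 1.52 TPM, 4.80-fold lower at -1.75 ± 0.05 (SE). The groups of these genes were separate. The basement membrane collagens Col4a1 and Col4a2 fell by 0.74 and 0.59 on the log2 scale, and the inhibitors of matrix proteases Timp1, Timp2 and Timp3 fell, at -1.09, -0.72 and -0.96. The proteases Mmp3 and Mmp13 were called higher, from 21.2 to 86.4 TPM and from 6.58 to 16.8 TPM.

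Interferon-stimulated genes, which encode antiviral proteins, fell almost throughout the list. Of the list, 35 of 51 genes in the table were measured, 13 of them through the vehicle group alone, which fixes their direction. Of the 35, 34 fell, 0 rose and 16 were called lower, with a median of -0.94. After rescaling 32 fell, with a median of -0.81. Summed TPM was 285, 285 and 264 in vehicle and 132, 116 and 121 with UK5099. The member that did not pass was Oasl1, at 1.22 and 1.11 TPM.

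The promoters of Isg15, Irgm1, Ifit3 and Bst2, which were among the 5 members with the largest falls, are shown because they hold the core of the interferon-stimulated response element, the letters at which interferon factors of the STAT and IRF families bind as a complex. They were chosen for holding it. The core was searched as GAAANNGAA on both strands, with overlaps allowed, in RefSeq windows of GRCm38.p6 that run from 250 bases before to 50 bases after each gene's start. It was present in 8.56% of all 32851 windows. Windows were found for 8615 measured genes, of which 8.08% held the core, as did 15.7% of the genes called lower, 9.22% of those called higher, and 19 of 29 interferon-stimulated genes with a window (65.5%). The 250 bases before the start are printed 5′ to 3′ on the gene's strand, with each match in capitals. The windows lie at chr4:156200819-156201068 (minus strand) for Isg15, chr11:48871421-48871670 (minus strand) for Irgm1, chr19:34583279-34583528 (plus strand) for Ifit3 and chr8:71537473-71537722 (minus strand) for Bst2.
Isg15: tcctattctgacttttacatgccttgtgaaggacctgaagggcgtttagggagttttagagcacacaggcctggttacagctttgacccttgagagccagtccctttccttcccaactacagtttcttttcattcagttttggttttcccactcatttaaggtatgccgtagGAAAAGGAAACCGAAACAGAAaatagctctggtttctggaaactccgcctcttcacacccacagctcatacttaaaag
Irgm1: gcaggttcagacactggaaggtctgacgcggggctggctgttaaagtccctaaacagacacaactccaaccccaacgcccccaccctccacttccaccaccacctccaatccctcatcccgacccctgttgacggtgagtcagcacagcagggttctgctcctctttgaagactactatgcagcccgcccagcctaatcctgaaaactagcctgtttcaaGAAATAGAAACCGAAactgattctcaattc
Ifit3: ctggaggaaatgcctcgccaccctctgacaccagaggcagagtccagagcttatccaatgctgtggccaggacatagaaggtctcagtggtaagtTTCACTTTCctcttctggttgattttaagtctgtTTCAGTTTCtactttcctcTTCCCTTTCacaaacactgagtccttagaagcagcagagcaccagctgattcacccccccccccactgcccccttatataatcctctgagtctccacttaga
Bst2: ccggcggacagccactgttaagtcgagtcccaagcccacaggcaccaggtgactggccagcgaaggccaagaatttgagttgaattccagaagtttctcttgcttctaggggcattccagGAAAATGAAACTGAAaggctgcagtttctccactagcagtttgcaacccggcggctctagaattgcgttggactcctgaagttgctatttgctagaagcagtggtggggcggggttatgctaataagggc

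In Isg15 and Bst2 the matches overlap on the gene's own strand, starting 78, 72 and 66 bases before the start in Isg15 and 130 and 124 bases before it in Bst2. In Irgm1 they start 30 and 24 bases before the start, and in Ifit3 the 3 matches are on the other strand. A match is a description of the letters and not of binding.

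Isg15 (chromosome 4, 156283912 to 156285253), a ubiquitin-like modifier, was at 19.6, 24.4 and 18.8 TPM in vehicle and 5.83, 2.92 and 2.97 TPM with UK5099. Oasl2, a relative of the sensors of double-stranded RNA, was at 11.8, 12 and 10.9 TPM and 2.11, 1.46 and 1.68 TPM. Irgm1, an immunity-related GTPase, was at 24.2, 22.9 and 24.4 TPM and 6.44, 5.17 and 5.45 TPM. The folds downwards were 5.35, 6.61 and 4.19, without overlap, and the differences -2.20 ± 0.21 (SE), -2.20 ± 0.07 (SE) and -1.90 ± 0.07 (SE), with adjusted p-values of 2.3e-05, 3e-08 and 3.4e-08. Bst2, tetherin, which holds virions at the cell surface, was at 11.3, 12 and 11 TPM and 3.16, 3.63 and 2.83 TPM. Ifit3, which binds viral RNA with its relatives, was at 3.18, 4.19 and 3.33 TPM and 1.02, 0.186 and 0.190 TPM, but none of its values came out as whole fragments and its level is uncertain. UK5099 replicate 1, which stood apart from its group, was the highest of the 3 in Isg15 and Ifit3, and was still below vehicle. Without it 33 interferon-stimulated genes fell, 17 were called lower and the median was -0.99.

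The factors and receptors that switch these genes on fell less. In interferon signalling 18 of 27 genes fell and 6 rose, with a median of -0.28. Irf7, the factor that amplifies type I interferon, was at 37.5, 42.1 and 36.4 TPM in vehicle and 16.8, 14.1 and 13.5 TPM with UK5099. Irf9, the DNA-binding part of the complex with the STAT factors, was at 49.2, 48.3 and 47.1 TPM and 23.2, 21.2 and 22.1 TPM. Both were called, at -1.33 ± 0.10 (SE) and -1.09 ± 0.04 (SE), with all UK5099 values lower. Stat2 fell by 0.54 on the log2 scale. The receptor genes Ifnar1, Ifngr1 and Ifnlr1 fell, at -0.39, -0.66 and -0.56. The sensors Tlr3 and Tlr2 were called lower, from 8.87 to 3.09 TPM and from 4.95 to 1.53 TPM, and Sting1 fell from 67 to 42.9 TPM. Socs3, a feedback inhibitor, rose from 7.43 to 13.1 TPM.

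Genes of antigen presentation by MHC class I fell in 17 of 20 cases, with 0 higher and a median of -0.45. B2m, the light chain, was at 174, 180.4 and 175 TPM in vehicle and 110, 110.2 and 115 TPM with UK5099, a difference of -0.66 ± 0.02 (SE). The heavy chain genes H2-K1 and H2-D1 fell by 0.68 and 0.57 on the log2 scale, although these genes are near-identical to relatives that can share their fragments. The immunoproteasome subunits Psmb8 and Psmb10 fell, at -0.68 and -0.59, as did Tap1 and Tapbp, which load peptides, at -0.44 and -0.60. With butyrate in both arms, 10 of the 20 genes fell and 0 rose on addition of UK5099, with a median of -0.17, and B2m had a difference of 0.04 and an adjusted p-value of 0.287.

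Chemokines and cytokines fell in 16 of 22 genes, of which 11 were called, and rose in 3. Cxcl2, which draws neutrophils, was at 459.6, 465 and 454 TPM in vehicle and 119, 135 and 126 TPM with UK5099, 3.62-fold lower. Cxcl10, an interferon-induced chemokine, was at 34.3, 34.5 and 33.7 TPM and 7.49, 7.36 and 8.70 TPM, 4.35-fold lower. The differences were -1.85 ± 0.06 (SE) and -1.99 ± 0.12 (SE), with no shared range. Csf2 and Csf1, growth factors for granulocytes and macrophages, were called lower, from 38.5 to 8.0 TPM and from 12.2 to 3.24 TPM, and so were Cxcl1, Cxcl5, Cxcl15 and Cx3cl1, at -1.14, -1.18, -1.70 and -1.17. Tnf fell from 214 to 129.8 TPM.

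Some cytokine and defence genes were higher, and those given here were picked for it. Tslp, a cytokine that epithelial barriers release, was at 29.8, 32.7 and 33.6 TPM in vehicle and 486, 521 and 551 TPM with UK5099. The UK5099 samples were 16.2-fold higher, with a difference of 3.98 ± 0.05 (SE) and an adjusted p-value of 2.1e-10. Il33 rose from 29.6 to 56 TPM and Il1a from 58.7 to 78.6 TPM. S100a8 and S100a9, which together form calprotectin, rose from 2.45 to 34.6 TPM and from 1.26 to 30.3 TPM, and Slpi, an inhibitor of neutrophil elastase, from 0.709 to 3.42 TPM. The complement and acute phase list, which holds Slpi, was divided. Of its 13 measured genes 8 fell and 4 rose, with 5 called lower and 3 called higher, and differences ran from -3.25 to 3.80. The acute phase genes Lcn2 and Cd14 were called lower, from 221, 214 and 214 to 65.8, 61.6 and 59.7 TPM and from 216, 219.9 and 209.9 to 57.7, 62.2 and 53 TPM in the 3 vehicle and 3 UK5099 samples, and C3, complement component 3, fell from 65 to 37.9 TPM.

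Genes of the NF-kB pathway fell in 15 of 19 cases, with 1 higher. The subunits Nfkb2, Relb and Rela fell, at -0.58, -0.59 and -0.32, and the inhibitor gene Nfkbie and the adhesion gene Vcam1 were called lower, from 14.3 to 5.45 TPM and from 12.1 to 5.0 TPM. The letters GGANTTTCC of an NF-kB site, searched on both strands, were in 1.25% of all windows, 1.72% of those of measured genes and 6 of the 15 chemokine and cytokine genes with a window (40.0%).

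**Figure D4:**
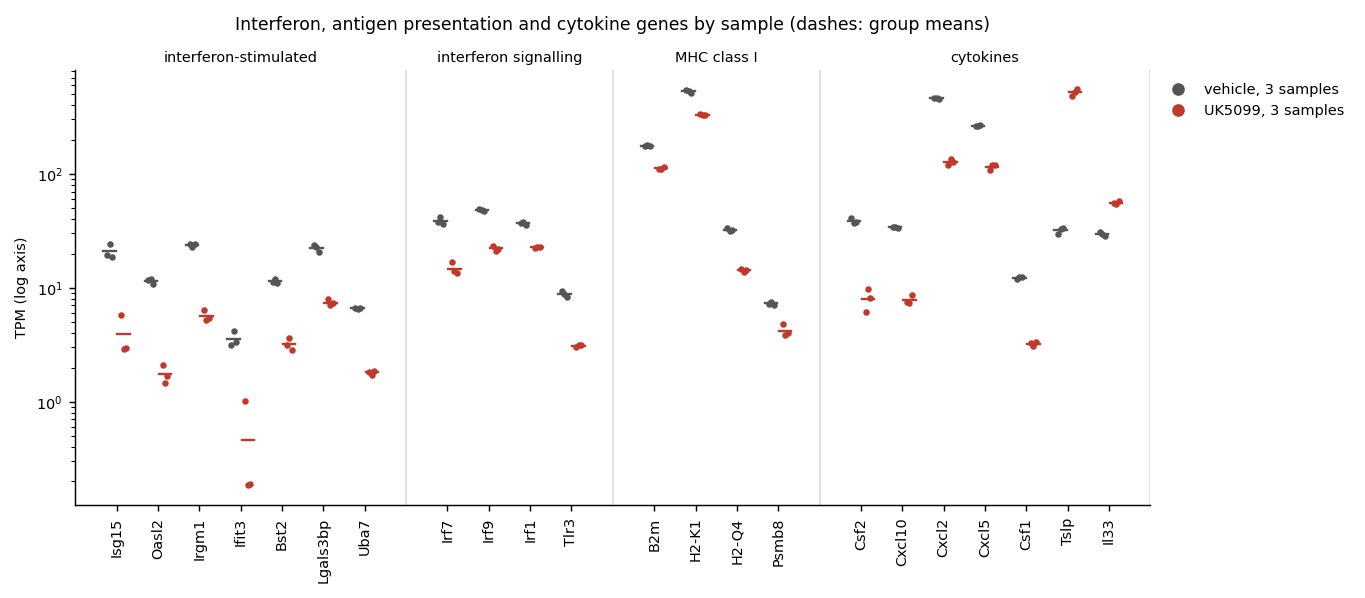
TPM of interferon, antigen presentation and cytokine genes in each of the 3 vehicle samples (grey) and 3 UK5099 samples (red) on a log axis, with dashes at the group means. The UK5099 samples are lower in every gene shown except Tslp and Il33, which are higher, and UK5099 replicate 1, the leftmost red point, is above replicates 2 and 3 in Isg15 and Ifit3. The genes were picked, and others that rose, such as Socs3 and Il1a, are not shown.

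Genes of cell division fell by small amounts. Of 37 genes of DNA replication 33 fell and 1 rose, with a median of -0.40 and 0 called. The helicase gene Mcm2 was at 32.8, 32.4 and 32.5 TPM in vehicle and 19.4, 19.1 and 20.1 TPM with UK5099, and Tyms, thymidylate synthase, at 11, 10.3 and 10.4 TPM and 5.25, 5.65 and 5.78 TPM. Neither overlapped, with differences of -0.71 ± 0.04 (SE) and -0.82 ± 0.04 (SE). Rrm2, a subunit of ribonucleotide reductase, was the member that rose, at 0.15, and did not pass without vehicle replicate 1, at 0.13. Of 37 mitotic genes 32 fell, with a median of -0.33, among them Mki67 from 106 to 79.9 TPM and Plk1 from 27.2 to 17.9 TPM, and Cdc25b, an activator of cyclin-dependent kinases, rose from 22.9 to 35.5 TPM. After rescaling 26 replication genes and 24 mitotic genes fell, with medians of -0.28 and -0.20.

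Of 15 cell cycle inhibitors and D cyclins 11 fell and 3 rose. Ccnd1, cyclin D1, fell from 514 to 356 TPM. The inhibitor genes Cdkn2b and Cdkn1c fell, at -0.77 and -0.79, while Cdkn1a rose by 0.15 but did not pass without vehicle replicate 1 (0.15) or 3 (0.13) or without UK5099 replicate 1 (0.15) or 3 (0.13). Of 19 apoptosis regulators 17 fell, with a median of -0.36. Bbc3, the p53 target PUMA, fell from 8.83 to 3.92 TPM, and Bax and the protective Bcl2 fell, at -0.45 and -0.47. Bid had the largest fall, at -1.20, but its values were not whole fragments. Pmaip1, which encodes NOXA, rose from 92.5 to 117 TPM, which did not pass without vehicle replicate 1 (0.33) or 3 (0.31) or UK5099 replicate 3 (0.29).

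Among signalling pathways, the early response factors rose in 14 of 22 cases and fell in 4. Fosl1, a subunit of the factor AP-1, was at 12.8, 13 and 13.2 TPM in vehicle and 34.2, 36 and 35.1 TPM with UK5099, and Egr3 at 11.4, 11.7 and 13 TPM and 43, 44.7 and 45.6 TPM. Both were called, at 1.37 ± 0.05 (SE) and 1.80 ± 0.06 (SE), with separate groups. Fos and Jund fell, at -0.49 and -0.73, and Myc rose from 88.3 to 132 TPM. The AP-1 letters TGANTCA, on either strand, were in 7.81% of all windows and 6.42% of those of measured genes. They were in 38 of 141 genes called higher with a window (27.0%), 13.2% of those called lower and 14 of 27 cornified envelope genes (51.9%). Lists that fell differed: 8 of 29 interferon-stimulated genes (27.6%) held them, as did 4 of 15 chemokine and cytokine genes (26.7%). In the NF-kB list it was 4 of 15 (26.7%), and in MHC class I presentation 0 of 19. The letters were thus not particular to genes that rose.

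Ligands of the EGF receptor were raised in part. Epgn, epigen, and Ereg, epiregulin, were called higher, from 4.40, 4.57 and 5.66 to 16, 16.1 and 16.7 TPM and from 6.39, 6.29 and 5.97 to 12.9, 14 and 14.5 TPM in the 3 vehicle and 3 UK5099 samples. Areg and Tgfa rose by 0.44 and 0.37, and the receptor gene Egfr by 0.14. The feedback phosphatases split, with Dusp6 higher, at 0.56, and Dusp4 lower, at -0.99. In the Notch pathway 7 of 11 genes rose, led by the ligand Dll1, which was at 3.95, 4.06 and 3.64 TPM and 15.1, 15.6 and 15.9 TPM. Its groups were 4.0-fold apart, and Jag2 and the receptor Notch3 rose with it, at 0.61 and 0.52, whereas the target Hey1 fell, at -0.97.

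Retinoic acid genes showed opposite extremes. Crabp2, which carries retinoic acid to its nuclear receptor, was at 2.92, 2.58 and 2.42 TPM in vehicle and 38.8, 33.8 and 39.7 TPM with UK5099, 14.2-fold higher at 3.40 ± 0.08 (SE). Cyp26b1, which degrades retinoic acid, and Tgm2 and Rdh10, a target and a retinol dehydrogenase, were called lower, at -2.61, -1.41 and -1.02. The TGF-beta list had 1 call, Tgfbi, a matrix protein induced by TGF-beta, at 1.02, 0.882 and 0.966 TPM and 10.3, 11.5 and 11 TPM, measured through UK5099 alone, while the ligands Tgfb1 and Tgfb3 were at -0.15 and -0.50. Tgfb1 was at -0.00 after rescaling and did not pass without replicate 1 of vehicle or of UK5099, at -0.14 in both. The Wnt list had no call, with 9 of 23 genes higher and 11 lower. Its largest members were Fzd1, lower at -0.97, Wnt7b, lower at -0.83, and Dkk3, higher at 0.76.

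Several of the most changed genes have not been described yet. The 15 highest protein-coding differences were in Krt6b, Nccrp1, Teddm3, Krtdap, Aqp3, Cstdc5, Krt10, Ly6g6c, Calm4, Krt13, Thbd, Cyp1b1, Fabp5, Tslp and S100a9, from 5.92 down to 3.80. Thbd, thrombomodulin, was at 0.203, 0.251 and 0.258 TPM in vehicle and 21.2, 23.6 and 24.9 TPM with UK5099. Cyp1b1 (chromosome 17, 80008966 to 80022490), a cytochrome P450 that oxidises oestrogens and aromatic hydrocarbons, was at 2.62, 2.60 and 2.36 TPM and 59.7, 61.4 and 63.3 TPM. All UK5099 samples of both were far above vehicle, 97.9-fold and 24.3-fold, with differences of 4.29 ± 0.10 (SE) and 4.15 ± 0.04 (SE) and adjusted p-values of 3e-09 and 4.2e-11. Calm4, a calmodulin-like protein of skin, was at 0, 0.170 and 0.131 TPM and 16.9, 25.2 and 26.4 TPM. Fabp5, a fatty acid binding protein of epidermis, rose from 21.4 to 375 TPM, and Cstdc5, a stefin, from 0.368 to 46.4 TPM. Both have near-identical copies, and 0 of the 3 low values of Fabp5 and 1 of the 3 of Cstdc5 were whole fragments, so their levels are uncertain.

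The 15 lowest were in Rgs4, Fn1, Clu, Cyp26b1, Hp, Plekhs1, Ctla2a, Mia, Isg15, Oasl2, Spp1, Cxcl13, Csf2, Enho and Ppp1r1b, from -4.65 up to -2.05. Plekhs1, which encodes a protein with a pleckstrin homology domain, was at 19.9, 19.9 and 19.4 TPM in vehicle and 2.84, 2.75 and 2.62 TPM with UK5099, a difference of -2.47 ± 0.05 (SE). Cxcl13, a B cell chemokine, was at 3.92, 4.43 and 4.31 TPM and 0.197, 0.254 and 0.0294 TPM, and Enho, the peptide adropin, at 6.09, 6.29 and 8.02 TPM and 0.804, 0.898 and 0.721 TPM. The groups of these genes were apart in all samples, and Cxcl13 and Enho were low in both groups. Ctla2a and Mia fell from 3.92 to 0.00161 TPM and from 29.6 to 5.44 TPM, but none of their low values were whole fragments.

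Outside protein-coding genes the 5 highest called were Gm6551, Gm6166, Gm14328, Cstdc7 and Gm49428, from 4.27 to 1.96. At most 1 of the low values of each was whole, so these pseudogenes and this lncRNA share fragments with other genes. Gm49428 lies at chromosome 15, 101598744 to 101600376 on the plus strand, inside Krt6a at chromosome 15, 101598345 to 101602742 on the minus strand, and where strand was not used in counting the reads of these 2 genes cannot be told apart. The 5 lowest were mt-Tw, Gm9847, Gm49990, Gmfg-ps and Cbx3-ps8, from -2.03 to -1.42. The adjusted p-value of mt-Tw was over 0.01 after rescaling (0.0112) and without any replicate but UK5099 replicate 2 (0.0116 to 0.0268), and that of Gm49990 was 0.152 with a pseudocount of 0.1. Of these Gmfg-ps had whole fragments in all 6 samples, at 8.49, 8.40 and 8.70 TPM in vehicle and 3.48, 3.06 and 1.42 TPM with UK5099.

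The response to UK5099 could be set beside that in organoids that had butyrate in both arms. These cultures share no sample with the comparison above. Over the same 13953 genes, addition of UK5099 to butyrate called 120 genes higher (0.860%) and 85 lower (0.609%). After rescaling these counts were 150 (1.08%) and 66 (0.473%). Without a limit on size, 984 genes rose (7.05%) and 4913 fell (35.2%) on addition to butyrate. Of the 229 genes called higher with UK5099 alone, 190 also rose on addition to butyrate, 5 fell and 34 did neither. Of the 225 called lower, 135 fell again, 3 rose and 87 did neither. Krt6b, Cstdc5, Calm4, Cyp1b1, S100a9 and S100a8 were among the 8 highest in the second comparison, with Cnfn and Rptn, and Cyp1b1 had a difference of 3.71 there against 4.15 with UK5099 alone.

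Levels in the 4 groups show what lay behind these values. Cyp1b1 was at 2.53 ± 0.149 TPM in vehicle and 61.5 ± 1.78 with UK5099, against 4.42 ± 0.195 with butyrate and 69.8 ± 2.0 with both (SD, n = 3). Krt16, by contrast, was at 49.4, 488, 134 and 960.1 TPM in the same order. S100a9 was at 1.26 TPM in vehicle and 30.3 with UK5099, and at 13.9 with butyrate and 170.1 with both, so the 2 responses were 3.80 and 3.52. The 8 lowest on addition to butyrate were Clca1, Mmp7, Fmo2, Lcn2, Dcn, Ppp1r1b, Naip6 and Cp. Mmp7 had means of 292 TPM in vehicle and 127 with UK5099, and of 177 on butyrate without UK5099 and 19.7 on both. Fmo2, a flavin monooxygenase, was at 29.2, 12, 18.2 and 2.45 TPM, and Naip6, an inflammasome sensor, at 6.28, 2.06, 8.18 and 1.20 TPM.

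The difference between the 2 responses was tested by the interaction term. It was called in 240 measured genes, of which in 120 the UK5099 response was higher with butyrate (0.860%) and in 120 lower (0.860%). The 8 lowest were Nccrp1, Teddm3, Ly6g6c, Aqp3, Spink5, Crnn, Psca and Ly6d, from -4.51 to -3.19. Crnn had means of 12.8 TPM in vehicle and 150.2 with UK5099, and of 356 on butyrate without UK5099 and 364 on both, so that UK5099 added 3.44 alone and 0.03 on butyrate. The interaction was -3.42 ± 0.15 (SE), with an adjusted p-value of 7e-07. In Spink5, a protease inhibitor, the sign itself differed, with 2.41 alone and -1.08 on butyrate. The 8 highest were Fn1, Rgs4, Spp1, Mmp9, Ctla2a, Hp, Cxcl13 and Tubb2b, and in each of them the butyrate mean was below the vehicle mean. Rgs4, a regulator of G protein signalling, had means of 41.7 TPM in vehicle and 0.710 with UK5099, and of 1.42 on butyrate without UK5099 and 0.151 on both. A gene this low on butyrate has little room to fall further on the log2(TPM + 1) scale, so its interaction is bound to be positive. Mmp9, gelatinase B, was at 56.6, 39.96, 4.0 and 17.7 TPM, with differences of -0.49 alone and 1.90 on butyrate.

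The median of all measured genes was -0.13 with UK5099 alone and -0.12 on butyrate. By list, suprabasal keratins had a median of 2.64 with UK5099 alone and 1.58 on butyrate, and cornified envelope genes 2.24 and 1.18. Basal genes had medians of 0.68 and 0.33, and luminal genes -0.53 and -0.47. For interferon-stimulated genes the medians were -0.94 and -0.18, and 7 of 35 had a called interaction, in each case with a smaller fall on butyrate. The limit of 1 TPM was set on the groups without butyrate only, and 13 of the 35 met it through vehicle alone. This choice by itself favours a larger fall without butyrate. In the same way 7 cornified envelope genes met it through UK5099 alone, which favours a larger rise there. Isg15, at 20.9 and 3.91 TPM without butyrate, was at 3.21 TPM with butyrate and 1.79 TPM with both drugs. Such a low level on butyrate limits how far a gene can still fall on the log2(TPM + 1) scale. Replication genes had close medians, -0.40 and -0.31, and 0 of 37 had a called interaction. Tests for single genes within the lists are those of the fit over all genes, and the lists as wholes were not tested.

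**Figure D5:**
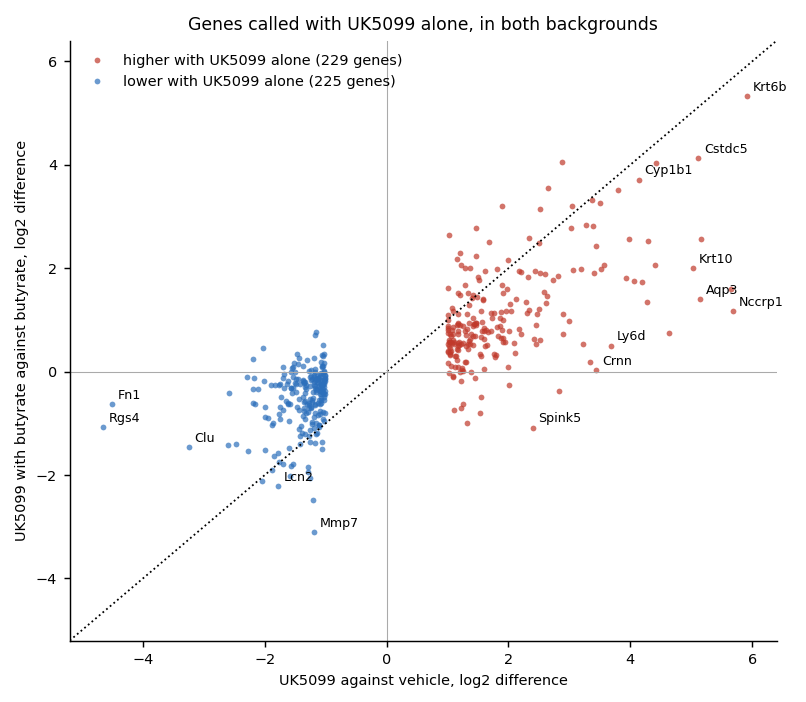
Each point is 1 of the 454 genes called with UK5099 alone. The horizontal axis gives the log2 difference between UK5099 and vehicle, and the vertical axis that between UK5099 with butyrate and butyrate, and the dotted line marks equal values. Red points were called higher and blue points lower on the horizontal axis, which leaves the gap around 0. Krt6b and Cstdc5 lie near the line, Crnn and Spink5 lie at 0.03 and -1.08 on the vertical axis, and Fn1 and Rgs4 lie far left of the line, at -4.50 and -4.65.

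UK5099 was last compared with butyrate directly, as each drug was given alone. Of the measured genes 291 were higher with UK5099 (2.09%) and 134 lower (0.960%). After rescaling these counts were 200 (1.43%) and 166 (1.19%). The 8 highest were Krt10, Nat8l, Cyp1b1, Sprr2d, Inhba, Krt6b, Mmp3 and Mmp10. Krt10 was at 118 ± 12.5 TPM with UK5099 and 8.14 ± 0.326 TPM with butyrate (SD, n = 3), against 2.63 ± 0.190 TPM in vehicle. Nat8l, which makes N-acetylaspartate from acetyl-CoA and aspartate, was at 12.6, 15.7 and 15.4 TPM with UK5099, 0.216, 0.269 and 0.403 TPM with butyrate and 0.547, 0.565 and 0.350 TPM in vehicle. Its UK5099 samples were above all others, and the difference from butyrate was 3.58 ± 0.10 (SE), with an adjusted p-value of 7.1e-09. The 8 lowest were Thbs2, Lrg1, Clca1, Mgp, Fgfr3, Dcn, Agr2 and Ngfr. Fgfr3, a growth factor receptor, was at 13.1 TPM with UK5099, 68 TPM with butyrate and 6.19 TPM in vehicle, and Clca1, a secreted protein of mucous epithelia, at 7.32, 48.6 and 12.9 TPM.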

How the data were processed

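RNA-seq of organoids was used from 3 vehicle and 3 UK5099 samples, with 3 butyrate and 3 combined samples in the same model. The deposited table holds TPM per gene, which the authors made from aligned reads. The submitters' processing notes name STAR 2.7.9a, Partek and GRCm39, while the study's methods name other versions and GRCm38. In 100% of genes the length equals stop minus start, so TPM is per genomic span, introns included. Whole fragments were recovered from the steps of TPM in 75.38% to 76.71% of protein-coding values under 1000 fragments, within 0.02, which gave the depth of each library, 33252024 to 43499069 fragments over all 12. Their number limits the precision of low genes, and limits from it cover counting error only.

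Values were analysed as log2(TPM + 1) in limma 3.58.1 (R 4.3.3) over all 24674 genes with a model of UK5099, butyrate and their interaction, and adjusted by Benjamini-Hochberg over all genes. Lists were counted over the measured genes. Named were the 15 highest and 15 lowest protein-coding genes, the 5 highest and 5 lowest others, the 8 extremes of each further comparison and members of the lists. The genes compared, the lists and the motifs were chosen with earlier results of these data known. Promoter windows were RefSeq's, of GRCm38.p6, matched by symbol for 8615 measured genes. Alternatives were other pseudocounts, scalings, exonic length, voom, call limits, a replicate block and leaving out each replicate. Python 3.11.15, pandas 2.3.3 and matplotlib 3.10.9 made the summaries and plots. Some members of the lists are not reported here.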

Additional observations from a re-analysis of the deposited data

Results flagged for a closer look

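These results stand here because the effect of UK5099 differed between organoids with and without butyrate, by the interaction term of the limma fit over all genes. Such a difference of more than 1, with an adjusted p-value under 0.01, was found in 240 measured genes. The named genes whose difference was more than 2 are given with the log2 difference of the effect with butyrate minus that without. Squamous genes had a smaller rise with butyrate in Nccrp1 (-4.51), Aqp3 (-3.75), Ly6g6c (-3.89), Crnn (-3.42), Krt10 (-3.03), Krtdap (-2.59) and Krt13 (-2.33). Genes listed as luminal, secretory or mucous were Spink5 (-3.49), Psca (-3.21), Ly6d (-3.19), Krt20 (-2.68) and Clca1 (-2.65). The effect was also lower with butyrate in Dcn (-2.46), Mgp (-2.04) and Aldh3a1 (-2.18). The genes Teddm3 (-4.06), Fabp5 (-2.31), Gm6551 (-2.93), Gm6166 (-2.45) and Gm14328 (-2.11) are uncertain, since few of their low values came out as whole fragments. The effect was higher with butyrate in Fn1 (3.87), Rgs4 (3.58), Spp1 (2.44), Mmp9 (2.39), Hp (2.16), Ctla2a (2.19) and Cxcl13 (2.05), and each of these had a lower mean with butyrate than with vehicle. Among them Ctla2a had no whole fragments in its low values, and Rgs4 was so low on butyrate that the log2(TPM + 1) scale left it little room to fall further. Clca1 fell from 12.9 to 7.32 TPM with UK5099 alone and from 48.6 to 3.67 TPM on butyrate, and Mgp, an inhibitor of calcification, rose from 1.96 to 7.70 TPM alone and went from 44.2 to 31.4 TPM on butyrate.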

How the results depend on the processing

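The 454 genes called between UK5099 and vehicle became 700 with a pseudocount of 0.1, 207 with one of 4, 722 with voom on recovered fragments and 91 with a coefficient limit of 2. For UK5099 added to butyrate the 205 calls became 346, 124, 379 and 40 under the same settings, and for UK5099 against butyrate the 425 became 698, 201, 691 and 57. The 240 interactions became 108 with a pseudocount of 4, 367 with voom and 33 with the limit of 2. Quantile normalisation gave 191 higher and 179 lower for UK5099 against butyrate, and 249 and 154 for UK5099 against vehicle. Leaving out 1 replicate of vehicle or UK5099 gave 438 to 459, 203 to 206, 418 to 429 and 225 to 239 calls in the same order of comparisons. No butyrate or combined sample was left out. The differences for UK5099 added to butyrate therefore could not move, only the estimate of spread, and 203 to 206 is no check of them. Likewise, leaving out a vehicle replicate could not move the differences of UK5099 against butyrate. Lists with a median above that of all measured genes were 21, and 21 to 22 under the alternatives.

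Same-numbered vehicle and UK5099 replicates did not deviate together (correlations of -0.1074, -0.0051 and -0.0137). Whether they share an animal or a culture cannot be read from this, and the labels do not say. A fit with the replicate number as a replicate block gave 449, 204, 424 and 232 calls. Under this block Cdkn1a, Pdp1, mt-Nd4l and mt-Tw no longer passed (adjusted p-values of 0.0115, 0.0108, 0.0137 and 0.0169 by limma) and Mpc2 did (0.00675), and no other of the 290 named genes changed its side of the threshold.

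Over these 290 genes and all settings, 4817 of 4916 values kept their side of the threshold and, where they passed in either fit, their direction, while 73 no longer passed, 14 newly passed and 12 that passed in either fit changed sign. Counting values that passed in neither fit, 32 values of 10 genes changed sign. Without single replicates mt-Tw was at -2.21 to -1.77 and mt-Nd4l at -0.31 to -0.21 where they did not pass, and Clca1 did not pass without vehicle replicate 1 (-0.76) or 2 (-0.68) nor Dcn without either replicate 1 or 2 of vehicle (0.30 and 0.33) or 2 or 3 of UK5099 (0.28 and 0.33). The sign turned only between values that did not pass in Agr2, Hmox1, Mpc1 and Oasl1, and in the other genes as follows, where a value passed. Ahr was at 0.14, 0.12 and 0.15 by median of ratios, quantile normalisation and voom, Edem1 at 0.02, 0.01 and 0.02, and Atf4 at 0.08 by median of ratios and by voom. Pdha1 was at 0.00 by both of these, and by voom Krt17 was at 0.09 and Slc16a1 at 0.14. Voom models fragments without the added pseudocount, which damps differences of low genes. The labels give neither the dose nor the time of treatment, and TPM here is per genomic span, so levels of genes with long introns are understated.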

Other observations

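The genes of this section were chosen after their values were seen. Genes known as targets of the aryl hydrocarbon receptor, a ligand-activated factor that induces enzymes of xenobiotic metabolism, were higher with UK5099 beside Cyp1b1. Cyp1a1, the best known of them, was at 0.0190, 0 and 0.0151 TPM in vehicle and 1.33, 0.903 and 1.17 TPM with UK5099, so it was close to absent and then just detectable. Aldh3a1, an aldehyde dehydrogenase, was at 5.80, 8.38 and 6.21 TPM and 54.5, 51.9 and 64.4 TPM, a difference of 2.90 ± 0.13 (SE). Tiparp, a feedback regulator of the receptor, was at 12, 12.3 and 12.6 TPM and 39.1, 40.1 and 43.7 TPM, and Xdh, xanthine dehydrogenase, at 1.78, 1.94 and 1.88 TPM and 6.63, 6.47 and 6.92 TPM. The groups of these genes did not overlap, and with butyrate in both arms the differences were 0.73 for Aldh3a1, 0.52 for Tiparp and 1.03 for Xdh. The receptor gene Ahr was at 29.3 and 29.3 TPM.

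Subunits of NADPH oxidases, which make superoxide or hydrogen peroxide, moved in opposite directions. Cyba, the membrane partner of the NOX enzymes, was at 13.7, 14.2 and 14.9 TPM in vehicle and 3.16, 2.54 and 2.85 TPM with UK5099, and the organiser and activator genes Noxo1 and Noxa1 were called lower with it, at -1.95 and -1.88. Duox1 and its maturation factor Duoxa1, which serve the dual oxidase, were called higher, from 0.486 to 4.07 TPM and from 2.42 to 9.80 TPM. Connexin genes of stratified epithelium rose in Gjb2, from 40.5, 43.6 and 39.9 to 442, 438 and 492 TPM, and in Gjb6, from 0.329 to 11.2 TPM. The hyaluronan synthase genes Has3 and Has2 rose from 5.12 to 20.6 TPM and from 4.25 to 13.3 TPM, and Ckmt1, a mitochondrial creatine kinase, from 21.7 to 84.4 TPM.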
